A study of Mus musculus with 12 samples.

Results

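The receptors for lysophosphatidic acid (LPA) and sphingosine 1-phosphate (S1P) were followed in osteoblasts, which build bone, and in the endothelial cells of bone vessels, from mice with and without breast cancer cells in their bones. The set named 10 genes: the LPA receptors Lpar1 to Lpar6, the S1P receptors S1pr1, S1pr2 and S1pr3, and Enpp2, the secreted enzyme autotaxin that makes LPA. They were chosen by name, through the array's annotation, and 8 of the 10 had a probe set with a single gene symbol, out of 19937 genes so named. Each of the 8 had exactly 1 probe set. Lpar5 and Enpp2 were not analysed here. The genes were put together with earlier results of these data in view, so their levels are a description, and no test of the set as a whole was made.

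The cells came from the long bones of NOD SCID females, mice without functional T and B lymphocytes. The 4 groups held 3 arrays each. Tumor-bearing mice had been injected in the heart with 200000 cells of MDA-MB231 scp1833, a human breast cancer cell line, and the tumors had about 2 weeks to grow; tumor-free mice supplied the other groups. Osteoblasts were sorted as GFP-, TR119-, CD45-, SCA1-, CD31- and CD51+ cells, and endothelial cells as GFP-, TR119-, CD45-, SCA1+ and CD31+ cells. Tumor-bearing and tumor-free mice alike are of this strain, and the tumor is a human line in a mouse host. Arrays of a group are biological replicates per the labels. The sources used here do not say whether an array pools mice. A p-value therefore sets a group difference only against the spread among these arrays, estimated over all 4 groups. All values are log2 expression of 1 probe set, and levels of different genes cannot be set against each other because probe sets differ in brightness.

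LPA and S1P are small lipids made from membrane phospholipids and sphingolipids, and cells sense them with G protein-coupled receptors. Lpar1, Lpar2, Lpar3 and the S1P receptors form one family by sequence, while Lpar4, Lpar5 and Lpar6 belong to the purinergic receptor branch. In vessels S1pr1 couples to inhibitory G proteins and supports the endothelial barrier, S1pr2 opposes many of its effects, and Lpar4 and Lpar6 act in endothelial sprouting. In bone, Lpar1 is the LPA receptor best known in osteoblast-lineage cells, and LPA released from platelets is known as a growth signal for breast cancer cells.

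Promoter sequences are shown for the 3 receptors that passed the test of tumor-bearing against tumor-free mice described later: Lpar6 in endothelial cells, and Lpar1 and Lpar4 in osteoblasts. Each window is the 250 bases before a RefSeq transcription start, from RefSeq on GRCm38.p6, printed 5′ to 3′ on the gene's strand. They lie at chr14:73237641-73237890 (plus strand) for Lpar6, chrX:106920375-106920624 (plus strand) for Lpar4 and chr4:58553492-58553741 (minus strand) for Lpar1, the most upstream of 3 windows of that gene. Capitals mark the ETS core, GGAA, on either strand.
Lpar6: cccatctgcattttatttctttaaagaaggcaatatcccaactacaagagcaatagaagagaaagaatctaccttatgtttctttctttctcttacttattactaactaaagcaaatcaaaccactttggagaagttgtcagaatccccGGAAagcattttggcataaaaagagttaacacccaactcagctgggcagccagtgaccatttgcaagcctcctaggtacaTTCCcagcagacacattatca
Lpar4: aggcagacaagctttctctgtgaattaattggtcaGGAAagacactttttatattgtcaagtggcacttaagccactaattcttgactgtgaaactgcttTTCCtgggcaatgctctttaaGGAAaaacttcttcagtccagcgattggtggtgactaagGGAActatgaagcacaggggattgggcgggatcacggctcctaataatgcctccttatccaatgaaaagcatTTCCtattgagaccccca
Lpar1: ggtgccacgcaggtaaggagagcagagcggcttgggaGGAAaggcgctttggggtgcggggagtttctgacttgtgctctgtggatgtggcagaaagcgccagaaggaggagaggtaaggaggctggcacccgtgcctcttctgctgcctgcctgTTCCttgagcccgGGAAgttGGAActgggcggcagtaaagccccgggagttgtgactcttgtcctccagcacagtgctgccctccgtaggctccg
The ETS core was found 2 times in the Lpar6 window, 5 times in that of Lpar4 and 4 times in that of Lpar1, and 93.4% of 32851 windows of the same length in the table hold it. The Lpar6 window was poor in GC (39.2%, with 1 CpG), as was that of Lpar4 (43.6%, with 3 CpGs), while the Lpar1 window had 62% GC and 11 CpGs. The other Lpar1 windows had 70% GC with 28 CpGs and 0 ETS cores, and 41.6% GC with 3 CpGs and 4 ETS cores. The median window had 52.4% GC and 6 CpGs. The TEAD motif GGAATG, which contains the ETS core, was found once in the Lpar6 window, on the minus strand where it overlaps an ETS core, and 12.6% of all windows hold it. A match describes the letters and is not a bound site.

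The arrays followed their labels. The 8 endothelial markers had a mean level of 9.94 to 10.29 on endothelial arrays and 4.91 to 6.01 on osteoblast arrays, and the 6 measured osteoblast markers had 8.87 to 10.19 on osteoblast and 6.40 to 6.76 on endothelial arrays. Tumor-free osteoblasts varied most: their replicates correlated at 0.867 to 0.908, against at least 0.946 in each other group. A gene was tested where it lay above the array median, 5.21 to 5.41, on 3 or more of the 12 arrays, true of 6 of the 8 receptors and of 12430 genes in all. The 6 tested receptors were above it on 11 or 12 arrays, whereas Lpar3 was above it on 2 and Lpar2 on 0.

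**Figure D1:**
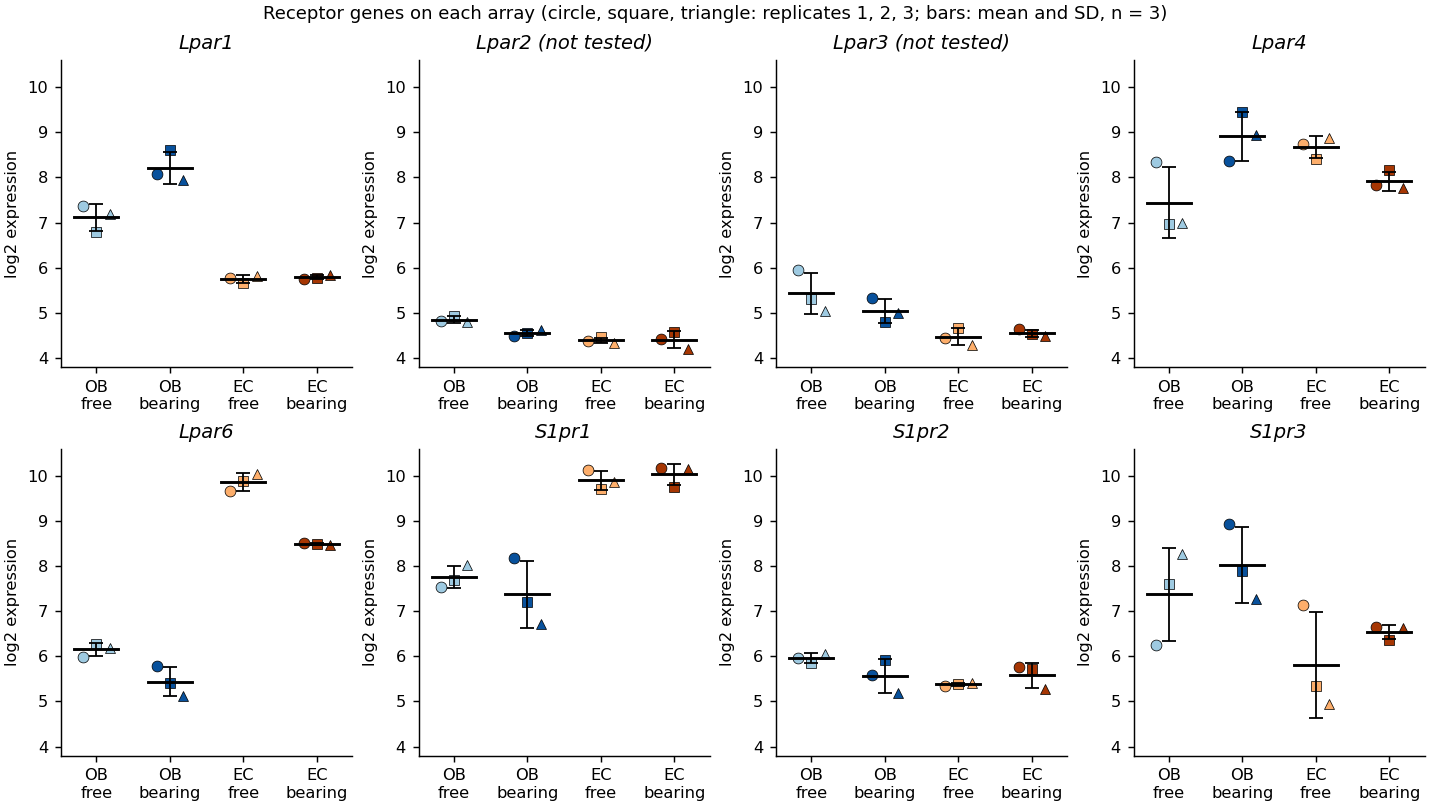
Log2 expression of each of the 8 measured receptors on each of the 12 arrays (y axis) by group (x axis; OB, osteoblasts; EC, endothelial cells), with the group mean and SD as bars (n = 3). Lpar6 and S1pr1 lie higher on all endothelial than on all osteoblast arrays, Lpar1 lies higher on all osteoblast arrays, and the arrays of S1pr3 are widely spread in tumor-free mice.

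In tumor-free mice, endothelial cells and osteoblasts differed in most of the tested receptors. Lpar6 was 13.1-fold, S1pr1 4.41-fold and Lpar4 2.34-fold higher in endothelial cells, while Lpar1 was 2.57-fold and S1pr2 1.49-fold lower there. So 5 of the 6 tested receptors differed, 3 higher and 2 lower in endothelial cells, where 31.0% of all tested genes differed (18.2% higher and 12.7% lower; limma, Benjamini-Hochberg adjusted p under 0.05). Of the 8 measured receptors, 7 had groups that did not overlap, against 47.3% of tested genes (23.1% higher and 24.2% lower). Lpar6, S1pr1 and Lpar4 were the higher ones in endothelial cells, and Lpar1, S1pr2, Lpar2 and Lpar3 the lower ones. Lpar2 and Lpar3 were too dim to be tested, while the share covers tested genes only. In a sorted population fewer cells of a type and less RNA per cell cannot be told apart.

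Lpar6, an LPA receptor of the purinergic branch, was measured by probe set 10416371. In tumor-free endothelial cells it was 9.66, 9.88 and 10.04 on the 3 arrays (log2 expression, 9.86 ± 0.19, SD, n = 3), and in tumor-free osteoblasts 5.99, 6.28 and 6.19 (6.15 ± 0.15, SD, n = 3). The groups lay far apart, and the gene ranked number 19 of 12430 by p-value. The log2 difference was 3.71 ± 0.18 (SE; 95% interval 3.31 to 4.11; limma adjusted p = 2.97e-07). In tumor-bearing mice endothelial cells stood at 8.5, 8.49 and 8.46 (8.49 ± 0.02) and osteoblasts at 5.79, 5.41 and 5.13 (5.44 ± 0.33). The cell types were again separate, by 3.04 ± 0.18 or 8.23-fold (limma adjusted p = 1.45e-06).

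Lpar6 lies within Rb1, the retinoblastoma gene, in the RefSeq annotation. Rb1 was also higher in endothelial cells, by 2.96-fold in tumor-free mice (log2 difference 1.57 ± 0.29, SE; limma adjusted p = 0.00296) and by 1.98-fold in tumor-bearing mice (0.98 ± 0.29; adjusted p = 0.0414). Its group means were 7.27 and 7.53 in osteoblasts of tumor-free and tumor-bearing mice, and 8.84 and 8.51 in endothelial cells. Whether RNA of Rb1 contributes to the Lpar6 signal was not tested.

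S1pr1, the main S1P receptor of endothelium, was 10.12, 9.71 and 9.86 in tumor-free endothelial cells (9.90 ± 0.21, SD, n = 3) and 7.54, 7.70 and 8.03 in tumor-free osteoblasts (7.76 ± 0.25). Every endothelial array was higher, with a log2 difference of 2.14 ± 0.32 (SE; 95% interval 1.45 to 2.84; limma adjusted p = 0.000813). In tumor-bearing mice it was 10.17, 9.76 and 10.16 in endothelial cells (10.03 ± 0.24) and 8.18, 7.21 and 6.71 in osteoblasts (7.37 ± 0.75). The difference there was 2.66 ± 0.32, or 6.33-fold (limma adjusted p = 0.000188), and the groups did not overlap.

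Lpar1 showed the opposite order. It was 7.37, 6.78 and 7.19 in tumor-free osteoblasts (7.12 ± 0.30, SD, n = 3) and 5.78, 5.67 and 5.81 in tumor-free endothelial cells (5.75 ± 0.08), a level close to the array median. The log2 difference, endothelial cells minus osteoblasts, was -1.36 ± 0.20 (SE; 95% interval -1.80 to -0.93; limma adjusted p = 0.000721). In tumor-bearing mice osteoblasts stood at 8.08, 8.61 and 7.95 (8.21 ± 0.35) and endothelial cells at 5.75, 5.78 and 5.83 (5.79 ± 0.04). That difference was -2.42 ± 0.20, so Lpar1 was 5.37-fold lower in endothelial cells (limma adjusted p = 1.17e-05).

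Lpar4 changed its order between tumor-free and tumor-bearing mice. In tumor-free mice endothelial cells had 8.73, 8.41 and 8.88 (8.67 ± 0.24, SD, n = 3) and osteoblasts 8.35, 6.97 and 7.0 (7.44 ± 0.79), where replicate 1 stood apart from the others. The endothelial arrays were all higher, by 1.23 ± 0.37 (SE; 95% interval 0.41 to 2.04; limma adjusted p = 0.0296). In tumor-bearing mice all endothelial arrays, at 7.83, 8.16 and 7.76 (7.92 ± 0.21), were lower than all osteoblast arrays, at 8.36, 9.44 and 8.95 (8.91 ± 0.54). That difference, -1.0 ± 0.37, did not pass the test (limma adjusted p = 0.105). The tumor-free difference shrank to 0.38 (adjusted p = 0.615) with replicate 1 as the only tumor-free array of either cell type, and was 1.68 without tumor-free osteoblast replicate 1.

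S1pr3, an S1P receptor of vessel wall and stromal cells, was the least even of the receptors. Tumor-free osteoblasts had 6.24, 7.60 and 8.26 (7.37 ± 1.03, SD, n = 3) and tumor-free endothelial cells 7.13, 5.34 and 4.94 (5.80 ± 1.17). The groups overlapped through replicate 1, which was the lowest osteoblast and the highest endothelial array. The log2 difference was -1.56 ± 0.63 (SE; 95% interval -2.95 to -0.17; limma adjusted p = 0.0797). It was -2.79 (adjusted p = 0.00272) with both tumor-free replicates 1 left out, and 0.89 (adjusted p = 0.38) with replicate 1 as the only tumor-free array of either cell type. In tumor-bearing mice osteoblasts had 8.92, 7.89 and 7.26 (8.02 ± 0.84) and endothelial cells 6.64, 6.36 and 6.63 (6.54 ± 0.16), with no overlap and a difference of -1.48 ± 0.63 (limma adjusted p = 0.163).

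S1pr2, the S1P receptor known to oppose S1pr1 in many cells, was near the array median in every group. It was 5.97, 5.84 and 6.06 in tumor-free osteoblasts (5.96 ± 0.11, SD, n = 3) and 5.35, 5.38 and 5.40 in tumor-free endothelial cells (5.38 ± 0.03), with all osteoblast arrays higher. The difference of -0.58 ± 0.20 (SE) passed narrowly (limma adjusted p = 0.0473), and 7 of 22 other settings kept that call, among them 3 of the 12 that left out 1 array. In tumor-bearing mice osteoblasts had 5.59, 5.92 and 5.18 (5.56 ± 0.37) and endothelial cells 5.77, 5.71 and 5.27 (5.58 ± 0.28). These groups overlapped, with a difference of 0.02 ± 0.20 (95% interval -0.42 to 0.46; limma adjusted p = 0.972).

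The remaining LPA receptors, Lpar2 and Lpar3, were dim and entered no test in the main setting. Lpar2 was 4.82, 4.93 and 4.79 in tumor-free osteoblasts, 4.48, 4.56 and 4.63 in tumor-bearing osteoblasts, 4.38, 4.46 and 4.33 in tumor-free endothelial cells and 4.41, 4.58 and 4.19 in tumor-bearing endothelial cells. All of its 12 values lay under their array's median. Lpar3 was 5.95, 5.31 and 5.04 in tumor-free osteoblasts, 5.32, 4.79 and 4.99 in tumor-bearing osteoblasts, 4.45, 4.66 and 4.29 in tumor-free endothelial cells and 4.64, 4.54 and 4.48 in tumor-bearing endothelial cells. With the filter on dim genes removed, Lpar3 (log2 difference -0.96, limma adjusted p = 0.011) and Lpar2 (-0.46, limma adjusted p = 0.0173) were lower in endothelial cells than in osteoblasts of tumor-free mice.

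In tumor-bearing mice 3 of the 6 tested receptors differed between the cell types, Lpar6 and S1pr1 higher and Lpar1 lower in endothelial cells, where 14.9% of tested genes differed (8.13% higher and 6.79% lower). Groups did not overlap for 6 of the 8 measured receptors, among them the untested Lpar3, against 35.9% of tested genes (19.5% higher and 16.3% lower). Lpar6, S1pr1 and Lpar1 passed the test between cell types under all 23 other settings, in tumor-free and in tumor-bearing mice. Over those settings and both kinds of mice, Lpar6 differed by 2.89 to 3.86, S1pr1 by 1.87 to 3.07, and Lpar1 by -2.66 to -1.21 on the log2 scale.

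With tumor, endothelial Lpar6 fell. The levels given above, 9.66 to 10.04 on tumor-free and 8.46 to 8.5 on tumor-bearing arrays, did not overlap. The log2 difference was -1.38 ± 0.18 (SE; 95% interval -1.77 to -0.98), so Lpar6 was 2.6-fold lower (limma adjusted p = 0.0458). It was 1 of 3 genes called in this comparison, which is 0.0241% of those tested (0.0161% higher and 0.00805% lower), and the only one called lower. Stxbp6, a syntaxin-binding protein gene, rose by 1.78 and Abcb1b, a drug efflux pump gene, rose by 2.09. Lpar6 ranked number 7 from the lowest difference and number 3 by p-value.

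The size of the endothelial Lpar6 difference held better than its call. Over 23 other settings it ranged from -1.48 to -1.18, but only 5 of them kept the adjusted p under 0.05, among them 2 of the 12 fits that left out 1 array, where it reached 0.35. The call held without tumor-free endothelial replicate 1 (-1.48, limma adjusted p = 0.0169) and without tumor-bearing osteoblast replicate 1. Array quality weights gave -1.42 (limma adjusted p = 0.000985). The call was lost with the replicate block, quantile normalization, median centring, no filter, or the filter at the 70th percentile. It was also lost with the intensity trend or with only the endothelial arrays in the fit. Rb1, in which the gene lies, had a tumor difference of -0.32 ± 0.29 in endothelial cells (limma adjusted p = 0.982).

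No other tested receptor passed in endothelial cells. The Lpar4 arrays of tumor-bearing mice, 7.76 to 8.16, were all below those of tumor-free mice, 8.41 to 8.88, with a log2 difference of -0.75 ± 0.37 (SE; 95% interval -1.56 to 0.06; limma adjusted p = 0.77). Groups did not overlap for 2 of the 8 measured receptors, Lpar4 and Lpar6, both lower, against 18.8% of tested genes (7.84% higher and 10.9% lower). For S1pr1 the difference was 0.13 ± 0.32 (95% interval -0.56 to 0.83; limma adjusted p = 0.999), and for S1pr3 it was 0.74 ± 0.63 (-0.65 to 2.13; limma adjusted p = 0.978). S1pr2 differed by 0.21 ± 0.20 (-0.23 to 0.64; limma adjusted p = 0.994) and Lpar1 by 0.04 ± 0.20 (-0.40 to 0.47; limma adjusted p = 0.999). These intervals include 0 and still allow changes of either sign.

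**Figure D2:**
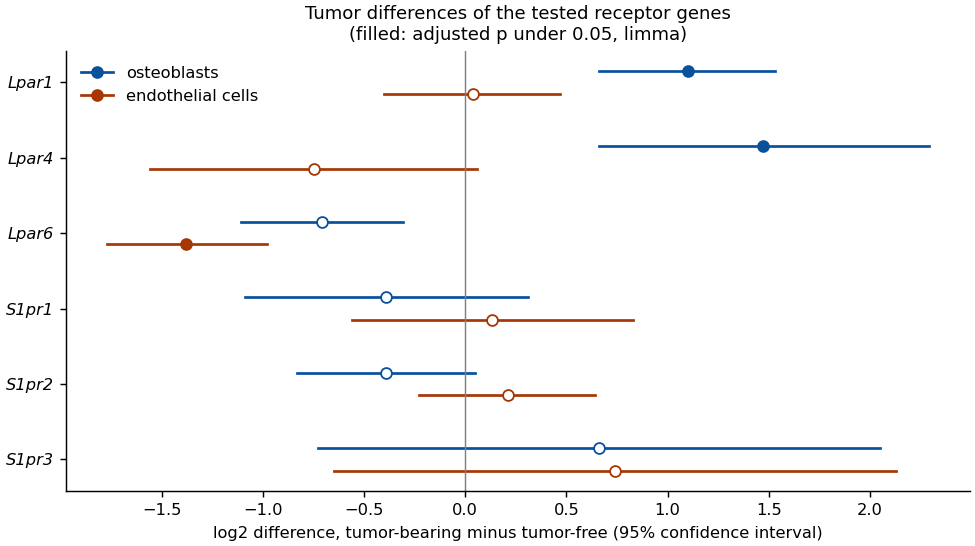
Log2 difference, tumor-bearing minus tumor-free, of the 6 tested receptors in osteoblasts and in endothelial cells (x axis), with 95% intervals from limma, filled where the adjusted p is under 0.05. Lpar1 (1.10) and Lpar4 (1.47) lie above 0 in osteoblasts, Lpar6 (-1.38) lies below 0 in endothelial cells, and the S1pr3 intervals are the widest.

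In osteoblasts 2 LPA receptors rose with tumor. Lpar1 was 7.37, 6.78 and 7.19 in tumor-free and 8.08, 8.61 and 7.95 in tumor-bearing mice, with every tumor-bearing array higher. It rose 2.14-fold, by 1.10 ± 0.20 (SE; 95% interval 0.66 to 1.53; limma adjusted p = 0.0136). Lpar4 was 8.35, 6.97 and 7.0 in tumor-free and 8.36, 9.44 and 8.95 in tumor-bearing mice, so its groups nearly met in replicate 1, at 8.35 and 8.36. It rose 2.78-fold, by 1.47 ± 0.37 (95% interval 0.66 to 2.29; limma adjusted p = 0.0487). These were 2 of the 6 tested receptors, both higher, while 4.59% of tested genes changed (4.01% rose and 0.571% fell). Groups did not overlap for 4 of the 8 measured receptors, against 24.7% of tested genes (12.3% in each direction). Lpar1 and Lpar4 were the higher ones, and Lpar6 and the untested Lpar2 the lower ones.

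The rise of Lpar1 passed under 20 of 23 other settings, with differences of 0.84 to 1.40. It missed the threshold without tumor-bearing osteoblast replicate 2 (0.90, limma adjusted p = 0.0555), and with only the osteoblast arrays in the fit (1.10, limma adjusted p = 0.175), where 0 of 12430 genes passed. It also missed it with replicate 1 as the only tumor-free array of either cell type (0.84, limma adjusted p = 0.111). The rise of Lpar4 passed under 8 of 23 and ranged from 0.56 to 1.96. It was 1.93 (limma adjusted p = 0.00216) without tumor-free osteoblast replicate 1, and 0.56 (limma adjusted p = 0.411) with replicate 1 as the only tumor-free array of either cell type.

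Lpar6 was low in osteoblasts and lower still with tumor. Its 5.79, 5.41 and 5.13 in tumor-bearing mice lay below the 5.99, 6.28 and 6.19 of tumor-free mice. The log2 difference of -0.71 ± 0.18 (SE; 95% interval -1.11 to -0.31) missed the threshold (limma adjusted p = 0.0517), and 6 of 23 other settings took it under 0.05. S1pr1 differed by -0.39 ± 0.32 (95% interval -1.09 to 0.31; limma adjusted p = 0.465), S1pr2 by -0.39 ± 0.20 (-0.83 to 0.05; limma adjusted p = 0.25) and S1pr3 by 0.66 ± 0.63 (-0.73 to 2.05; limma adjusted p = 0.54). The arrays of these 3 S1P receptors overlapped between tumor-free and tumor-bearing osteoblasts. Among the untested, Lpar2 was lower on all tumor-bearing arrays, by 0.29 in the means.

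Some marker lists differed between tumor-free and tumor-bearing arrays, and many overlapped. The 8 endothelial markers averaged 5.31 to 6.01 on tumor-free and 4.91 to 5.41 on tumor-bearing osteoblast arrays, with 2 and 1 of the 8 above the array median on all 3 arrays. They averaged 10.13 to 10.29 on tumor-free and 9.94 to 10.09 on tumor-bearing endothelial arrays. Markers of pericytes and smooth muscle (7 genes) were at 6.54 to 6.58 and 7.14 to 8.30 in osteoblasts without and with tumor, and at 6.38 to 7.18 and 7.20 to 7.52 in endothelial cells. Cartilage markers (5 genes) were at 10.05, 8.57 and 6.48 on the tumor-free osteoblast arrays, in replicate order, and at 10.11 to 10.74 on the tumor-bearing ones. Replicate 1, the highest of these tumor-free arrays, was also the highest of them for Lpar4. In endothelial cells cartilage markers were at 5.39 to 6.40 without and 5.42 to 5.7 with tumor. Immediate early genes (10 genes), which are known to respond to stress and cell dissociation, were at 8.0 to 9.06 and 9.63 to 9.76 in osteoblasts and at 8.55 to 9.59 and 9.56 to 9.64 in endothelial cells, and in both cell types replicate 1 was the highest tumor-free array. Hematopoietic markers (10 genes) were at 5.49 to 7.48 and 5.08 to 6.63 in osteoblasts and at 4.80 to 5.27 and 4.96 to 5.55 in endothelial cells. Markers of reticular stroma (6 genes) were at 8.07, 8.94 and 9.37 on the tumor-free and 9.82, 9.11 and 8.38 on the tumor-bearing osteoblast arrays, in replicate order. In endothelial cells they were at 8.64, 8.0 and 7.87 without tumor and at 8.64 to 8.68 with it. Within each tumor-free group and in tumor-bearing osteoblasts these means ranked the arrays as S1pr3 did, but not in tumor-bearing endothelial cells. Other lists shared parts of that order. Osteoclast markers had it in both osteoblast groups, and pericyte markers and immediate early genes had it in tumor-free endothelial cells. Platelet markers had it in tumor-free osteoblasts, and pericyte, hematopoietic and endothelial markers had it in tumor-bearing osteoblasts. Platelet markers (4 measured genes) were at 5.94 to 6.82 and 6.19 to 8.28 in osteoblasts, the highest being tumor-bearing replicate 3, and at 5.84 to 6.86 and 5.75 to 7.23 in endothelial cells. Osteoclast markers (5 genes) were at 5.53 to 6.89 and 5.42 to 6.73 in osteoblasts and at 5.04 to 5.18 and 4.71 to 5.13 in endothelial cells, and erythroid markers (4 measured genes) were at 5.33 to 6.36 on all arrays. The part of these markers in the receptor differences was not tested.

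**Figure D3:**
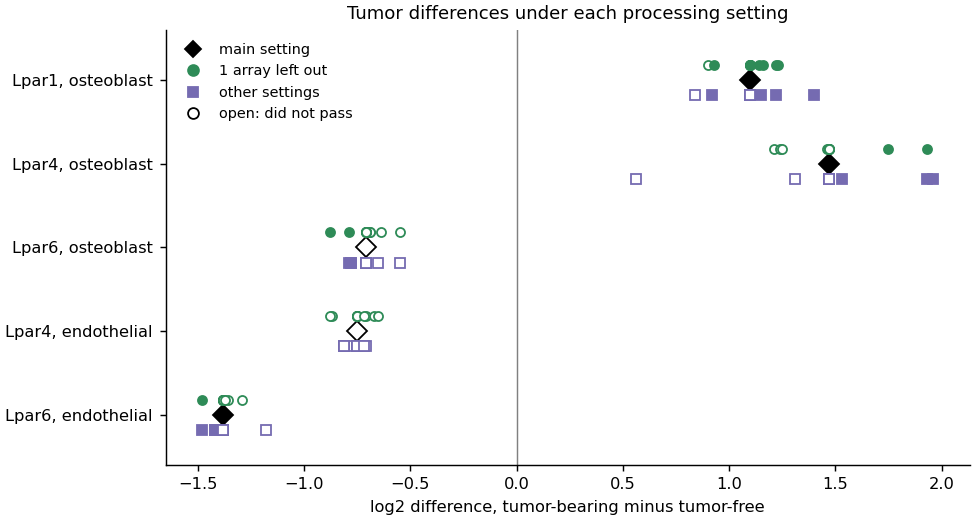
Log2 tumor difference (x axis) of Lpar1, Lpar4 and Lpar6 under the main setting and every other setting tried, filled where the limma adjusted p is under 0.05. Lpar1 in osteoblasts stays between 0.84 and 1.40 and Lpar6 in endothelial cells between -1.48 and -1.18, whereas Lpar4 in osteoblasts spans 0.56 to 1.96.

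Whether the tumor difference itself differed between the cell types was tested as a difference of differences, osteoblasts minus endothelial cells. It was 2.22 ± 0.52 for Lpar4 (SE; 95% interval 1.07 to 3.37; limma adjusted p = 0.107), 1.06 ± 0.28 for Lpar1 (0.45 to 1.67; limma adjusted p = 0.135) and 0.67 ± 0.26 for Lpar6 (0.10 to 1.23; limma adjusted p = 0.245). None of the 6 tested receptors passed in limma, against 0.209% of tested genes (0.177% higher and 0.0322% lower), and 3 had an unadjusted p under 0.05. A difference of the tumor effect between the cell types is therefore not shown for any receptor, although Lpar1 and Lpar4 passed in osteoblasts alone and Lpar6 in endothelial cells alone. For Lpar4 it passed without tumor-free osteoblast replicate 1 (2.68, limma adjusted p = 0.00565), as it did for Lpar1 (1.19, limma adjusted p = 0.0412). All osteoblast arrays of Lpar4 were higher and all endothelial arrays lower with tumor, an arrangement seen for 1.28% of tested genes. The tumor and cell type comparisons share arrays and are not independent of each other.

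The partners of these receptors were counted in 4 lists of 35 genes, of which 24 were tested. Between the cell types in tumor-free mice 8 were higher and 2 lower in endothelial cells and 14 did not pass, where 31.0% of all tested genes passed. In tumor-bearing mice 4 were higher and 2 lower, against 14.9% of tested genes. With tumor 2 rose in osteoblasts and 0 fell, against 4.59% of tested genes. In endothelial cells 0 of 24 passed in limma, against 0.0241% of tested genes. There 5 had an unadjusted limma p under 0.05, the highest at 0.0227 for Stat3, number 466 of 12430 by p-value. The lists were chosen with earlier results known, and the counts describe them only.

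Among enzymes that set the S1P level, calls between the cell types went in both directions. Of 11 tested genes for S1P synthesis, breakdown and export, 3 were higher and 1 lower in tumor-free endothelial cells, where 18.2% of all tested genes were higher and 12.7% lower, and the median difference over the 11 was 0.12, against 0.03 over all tested genes. That share of calls is near the background. Acer2, a ceramidase that frees sphingosine, was 5.53, 5.33 and 5.24 in osteoblasts and 8.01, 8.19 and 8.47 in endothelial cells, 7.25-fold higher (log2 difference 2.86 ± 0.26, SE; limma adjusted p = 2.68e-05). These values are of the brighter of its 2 probe sets. Over 23 other settings the Acer2 difference was 1.32 to 3.05, the lowest with its 2 probe sets averaged. The size of the difference therefore rests on the brighter probe set, and the other one alone is not shown. In the fits that left out 1 array it was 2.73 to 2.97. Asah2, another ceramidase, was 5.72-fold higher (2.52 ± 0.41; limma adjusted p = 0.00144). Sphk1, the kinase that makes S1P, went the other way and was 1.84-fold lower in endothelial cells (-0.88 ± 0.14; limma adjusted p = 0.00148). In tumor-bearing mice 2 were higher and 2 lower, where 8.13% of all tested genes were higher and 6.79% lower. Sgpp1, an S1P phosphatase, was 2.26-fold lower in endothelial cells of these mice (-1.18 ± 0.18; limma adjusted p = 0.00126).

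Of 5 tested LPA-producing and LPA-degrading enzymes, 2 were higher in tumor-free endothelial cells and 0 lower, against 18.2% and 12.7% of all tested genes. Both are lipid phosphate phosphatases, which degrade LPA and S1P at the cell surface. Plpp1 was 7.69, 6.82 and 7.49 in osteoblasts and 9.75, 9.78 and 9.67 in endothelial cells (log2 difference 2.40 ± 0.25, SE; limma adjusted p = 7.01e-05), and Plpp3 was 3.99-fold higher (2.00 ± 0.53; limma adjusted p = 0.0178). In tumor-bearing mice Plpp1 alone of the 5 passed, 7.16-fold higher, where 8.13% of all tested genes were higher and 6.79% lower. None of the 5 passed in either tumor comparison in limma.

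Of 6 tested regulators of S1pr1, 3 were higher in tumor-free endothelial cells, led by Arrb1, the arrestin that takes receptors off the surface, at 5.71-fold (2.51 ± 0.22; limma adjusted p = 1.86e-05), where 18.2% of all tested genes were higher. The other 2, Foxo1 and Arrb2, passed in 9 and 8 of 23 other settings. Of 2 tested related receptors, S1pr5 was 1.45-fold lower (-0.54 ± 0.16; limma adjusted p = 0.0283) and S1pr4 did not pass (-0.42 ± 0.20; limma adjusted p = 0.125). Of all tested genes 12.7% were lower there.

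The 2 partners that rose in osteoblasts with tumor came from 2 lists. Stat3, a transcription factor that acts on S1pr1, was 7.86, 8.23 and 8.16 in tumor-free and 8.92, 9.05 and 8.69 in tumor-bearing osteoblasts, with no overlap. It rose 1.74-fold (log2 difference 0.80 ± 0.20, SE; limma adjusted p = 0.0453). Sgpp1 was 5.94, 5.74 and 6.35 in tumor-free and 6.49, 7.02 and 6.78 in tumor-bearing osteoblasts, again with no overlap. It rose 1.69-fold (0.76 ± 0.18; limma adjusted p = 0.0441). Of the 12 fits that left out 1 array, 3 called Sgpp1 and 2 called Stat3. Immediate early genes, given above, were higher on the same tumor-bearing arrays.

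**Figure D4:**
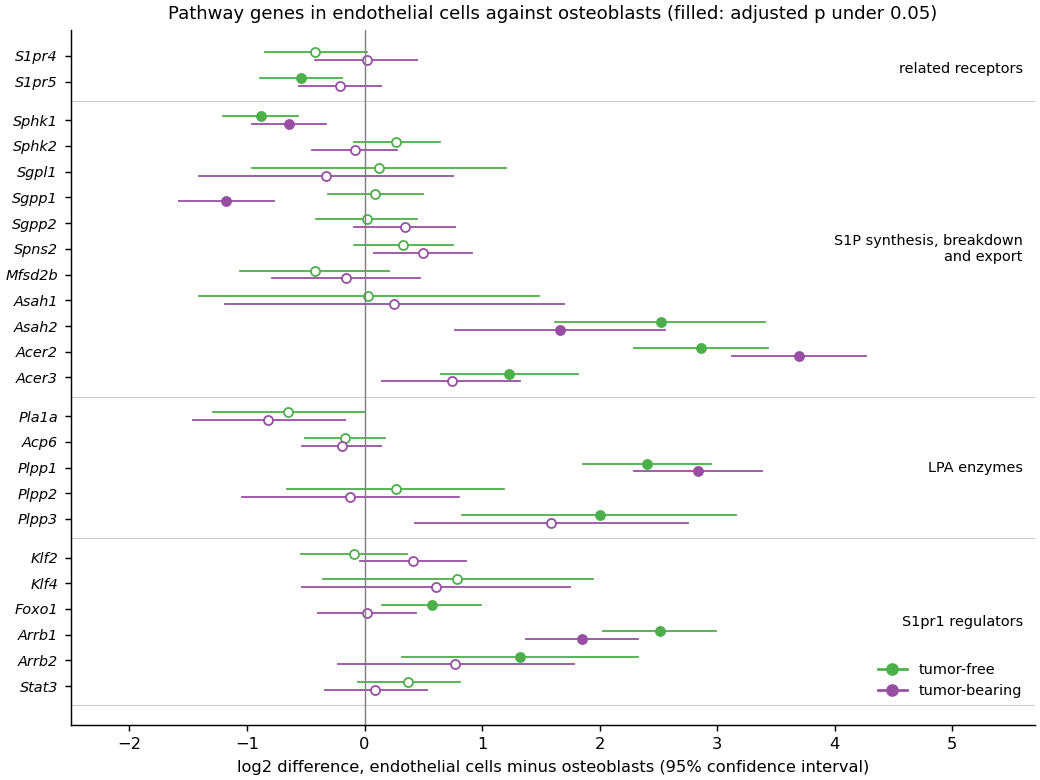
Log2 difference, endothelial cells minus osteoblasts (x axis), of the 24 tested partner genes by list, in tumor-free and in tumor-bearing mice, with 95% intervals, filled where the limma adjusted p is under 0.05. In tumor-free mice 8 lie higher and 2 lower past the threshold, and in tumor-bearing mice 4 lie higher and 2 lower.

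For the 5 tested receptors whose group means spanned at least 1, the genes with the most similar profile over the 12 arrays were found by root mean square distance between centred log2 profiles. For Lpar6, whose own profile has a root mean square of 1.78, they were Stab1, Nrcam and Fam167b, each at 0.35. Stab1, which encodes a scavenger receptor of sinusoidal endothelium, had group means of 5.88 and 5.68 in osteoblasts without and with tumor, and 9.47 and 8.75 in endothelial cells. Nrcam, an adhesion molecule gene, had 5.40, 4.93, 8.52 and 7.52 in the same order. All of them were lower with tumor in endothelial cells by their means, while none of the 3 was among the genes called.

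For Lpar1 the closest profiles were those of Smpd3 (distance 0.22), Matn2 (0.26) and Pxylp1 (0.29), against its own root mean square of 1.04. Smpd3 encodes a sphingomyelinase of bone and cartilage, and its group means were 6.42 and 7.43 in osteoblasts without and with tumor and 4.85 and 5.18 in endothelial cells. For Lpar4 they were Hspg2, the perlecan gene (0.30), Gab1 (0.32) and Pcgf6 (0.34), against 0.72. For S1pr1 they were Clic5 (0.28), the basement membrane gene Nid1 (0.33) and Ccnyl1 (0.34), against 1.26. For S1pr3 they were Esm1 (0.22), Kng2 (0.28) and Il1rn (0.29), against 1.11. These distances are over the same 12 arrays and describe the profiles only.

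**Figure D5:**
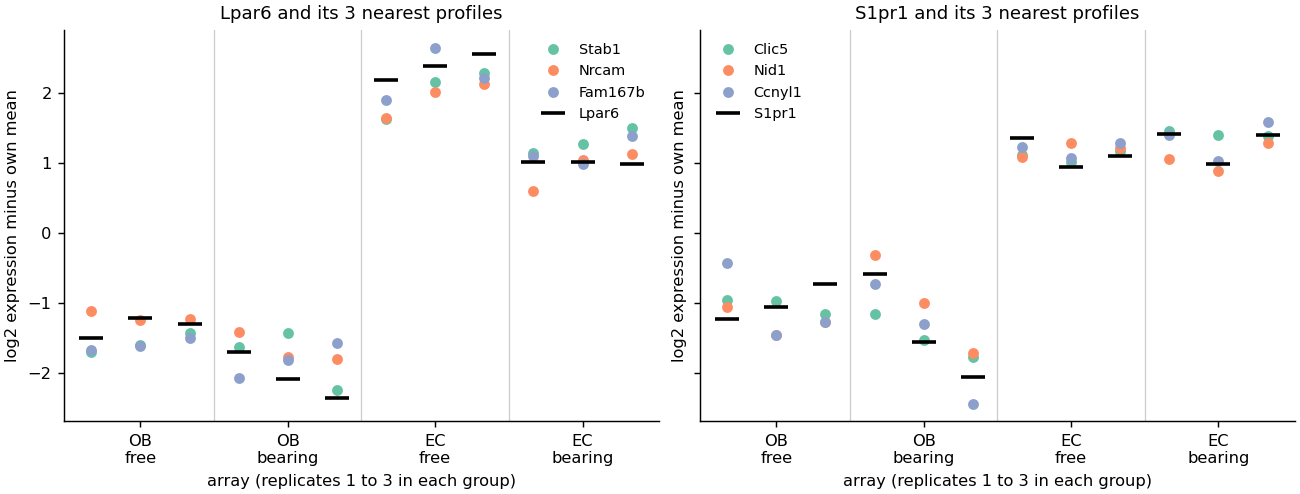
Log2 expression minus the gene's own mean (y axis) on the 12 arrays by group (x axis; OB, osteoblasts; EC, endothelial cells) for Lpar6 and S1pr1 (black bars) and the 3 genes with the smallest root mean square distance to each (points). The genes drawn with Lpar6 lie lower on tumor-bearing than on tumor-free endothelial arrays, by their means, while the means of Clic5 and Ccnyl1, drawn with S1pr1, are higher and that of Nid1 is lower there.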

How the data were processed

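RNA was amplified and labelled before hybridisation, per the labels' protocols. The authors deposited log2 expression per probe set (34760 probe sets, 12 arrays, values from 1.55 to 12.94), made with affy per the submitters' processing notes. Version, background correction and normalization: not given in the sources used here. With 3 arrays a group, their number limits the precision. Groups came from the sample titles, and 0 of 66 array pairs held identical values. Of the probe sets 21640 have 1 gene symbol, 1321 several and 11799 none in the annotation table. For a gene with several probe sets, that with the highest mean was used.

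The test was limma 3.58.1 (R 4.3.3) on these log2 values: 4 group means fitted to all 12 arrays, no replicate block, 8 residual and 2.89 prior degrees of freedom, two-sided, Benjamini-Hochberg adjusted over 12430 genes, threshold 0.05. A log2 difference was turned into a fold as a power of 2. The filter, a value over the median probe set on 3 or more arrays, left out 7507 genes. The members and lists were chosen with earlier results of these data known. Up to 3 genes with the smallest p were named per partner list and comparison, and the 3 nearest profiles of each receptor whose group means span at least 1, passing over genes known only by a clone number. Other settings were the replicate block, quantile normalization, median centring, array weights, an intensity trend, no filter or one at the 70th percentile, averaged probe sets, only the groups compared, and each array left out. The steps were tested on simulated data. RefSeq held promoters for 8 of the 10 genes, and motifs were searched on both strands. Probe set coordinates are not printed, because the sources used here name no genome build. One list of partner genes is not reported here.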

Additional observations from a re-analysis of the deposited data

Results flagged for a closer look

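The tumor differences of Lpar4 had opposite signs in the 2 cell types. Every tumor-bearing osteoblast array was above every tumor-free one (mean log2 difference 1.47), and every tumor-bearing endothelial array was below every tumor-free one (-0.75, which did not pass, limma adjusted p = 0.77). The same arrangement was seen for 159 of 12430 tested genes (1.28%). The difference between both effects, 2.22 ± 0.52 (SE), did not pass the limma test (adjusted p = 0.107, and 0.00565 to 0.263 over its other settings).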

How the results depend on the processing

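Over 23 other settings (22 for the difference of differences, S1pr2 and S1pr5, 21 for the difference of differences of S1pr2), 977 of the values of single genes kept direction and side of the threshold, 141 kept direction but no longer passed, 24 newly passed and 18 changed sign.

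The number of tested receptors past the threshold depended on the setting. In osteoblasts with tumor it was 2, and 1 with an intensity trend, 0 with only the groups compared, 0 with tumor-free replicates 2 and 3 left out, and 0 to 3 with 1 array left out. In endothelial cells with tumor it was 1, and 0 with quantile normalization, median centring, no filter, the filter at the 70th percentile, the intensity trend, only the groups compared, or tumor-free replicates 2 and 3 left out, and 0 to 1 with 1 array left out. Between the cell types of tumor-free mice it was 5, and 3 with quantile normalization or tumor-free replicates 2 and 3 left out, and 3 to 5 with 1 array left out. In tumor-bearing mice it was 3, and 5 with array weights, only the groups compared, tumor-free replicate 1 left out, or tumor-free replicates 2 and 3 left out, and 3 to 4 with 1 array left out. For the difference of differences it was 0, and 2 with array weights, 1 with tumor-free replicate 1 left out, and 0 to 2 with 1 array left out. The fits without tumor-free replicate 1, or without tumor-free replicates 2 and 3, left these out in both cell types and were chosen after seeing the data. Fewer arrays were in those fits; for the other settings the cause was not tested.

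The deviations of same-numbered arrays correlated at -0.26 to 0.108, with 1 of 18 pairs above 0.1. Arrays with other numbers gave -0.179 to 0.251, with 3 of 36 pairs above 0.1. Pairs that join tumor-bearing with tumor-free arrays cannot come from the same mice. Between osteoblasts and endothelial cells, same-numbered arrays gave 0.095, 0.074 and -0.003 in tumor-free mice. In tumor-bearing mice they gave 0.002, 0.071 and -0.046. Whether same-numbered arrays share mice or a batch was not tested. With the replicate block, 1 receptor passed in osteoblasts, 0 in endothelial cells, 3 between the cell types of tumor-free mice and 3 of tumor-bearing mice.

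Of the changes of sign, 0 involved a value past the threshold. With tumor-free replicates 2 and 3 left out, S1pr1 was -0.09 and S1pr3 -0.59 in endothelial cells with tumor, and S1pr3 was 0.89 between the cell types of tumor-free mice and 2.37 as a difference of differences. Median centring gave -0.01 for Lpar1 in endothelial cells with tumor, where it shifted the median of all genes by -0.04. It gave 0.02 for the S1pr3 difference of differences, where the shift was 0.10. Leaving out both tumor-free replicates 1 gave -0.11 for Rb1 in osteoblasts with tumor. Array weights gave -0.07 for S1pr2 between the cell types of tumor-bearing mice. With 1 array left out, Lpar1 in endothelial cells with tumor ranged from -0.01 to 0.06, S1pr2 between the cell types of tumor-bearing mice from -0.17 to 0.20, the S1pr3 difference of differences from -0.75 to 0.36, and Rb1 in osteoblasts with tumor from -0.11 to 0.53.

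The count of all genes past the threshold also moved. In osteoblasts 570 became 111 to 1573 with 1 array left out and 0 to 1421 under the other settings. In endothelial cells 3 became 0 to 61 and 0 to 449. Between the cell types 3850 became 2266 to 3921 and 1911 to 6564 in tumor-free mice, and 1854 became 1325 to 2376 and 1627 to 3733 in tumor-bearing mice. For the difference of differences 26 became 0 to 545 and 0 to 378.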
